A study of Mus musculus with 614 samples.

Results

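The Ly6 surface proteins are small, disulfide-bonded proteins held in the outer leaflet of the membrane by a glycosylphosphatidylinositol (GPI) anchor, and their genes lie close together on mouse chromosome 15. Immunologists use several of them as sort markers: Ly6a encodes Sca-1, which marks stem cells and early progenitors, Ly6c1 and Ly6c2 encode the Ly6C antigen of monocytes and plasmacytoid dendritic cells, and Ly6d marks lymphoid progenitors on the way to B cells. Several members are inducible by interferon, and Ly6e is a widely expressed member known for its effect on virus entry. The 6 members described here, Ly6a, Ly6c1, Ly6c2, Ly6d, Ly6e and Ly6i, were taken by symbol from the 43280 gene symbols of the expression table, and all 6 were listed with values above 0 in some cells. The study asked from which progenitors plasmacytoid dendritic cells arise, and a Ly6 protein, Ly6D, is named in its title.

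Messenger RNA was measured in single mouse cells, 598 from marrow and 16 from blood, each captured on a microfluidic chip and made into its own library. They came from 12 sort gates of untreated adult C57BL/6J mice 7 to 10 weeks old. The marrow progenitor gates were 65 lymphoid-primed multipotent progenitors (LMPP; lineage-negative c-Kit+, CD34+, intermediate CD16/32, Sca-1+, CD127-), 51 granulocyte-monocyte progenitors (GMP; c-Kit+, CD34+, high CD16/32, Sca-1-) and 66 common monocyte progenitors (cMoP; CD115+, high Ly6C, c-Kit+, Flt3-, CD11b-). There were also 48 common lymphoid progenitors (CLP; low c-Kit, CD127+, low Sca-1, CD34+, Flt3+, Thy-1-), 58 common dendritic cell progenitors (CDP; CD11c-, MHCII-, Flt3+, intermediate c-Kit, CD115-, IL7R-) and 30 pre-pro-B cells (B220+, CD43+, CD93+, CXCR4+, IL7R+, Flt3+). Marrow precursors of dendritic cells (pre-DC; CD11c+, MHCII-, Flt3+, CD172α-, B220-) fell into 4 gates: of those with Ly6C, 45 were SiglecH+Ly6C+ and 68 lacked SiglecH (SiglecH-Ly6C+), and of those without Ly6C, 70 had SiglecH (SiglecH+Ly6C-) and 70 had neither protein (SiglecH-Ly6C-). The last gates were 27 plasmacytoid dendritic cells (pDC; B220+, SiglecH+), which are the main producers of type I interferon, and 16 pre-DC from blood, the 1 gate that was not from marrow.

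No label names an animal, so each gate counts as 1 sample, SDs are over cells, and no p-value was computed. Values are TPM (relative transcript abundance, scaled by gene length to a fixed total per cell), which keep no read depth. Genes detected per cell, at 1 TPM, stand in for depth. Their number was lowest in CLP (median 3280), LMPP (3292) and the pre-pro-B gate (3316) and highest in cMoP (6671). The pre-pro-B gate went against its label in part: of 7 B-lineage genes 4, among them Pax5, Vpreb1 and Igll1, were at 0 in all 30 cells and Ebf1 reached 1 TPM in 6.67%. Cd79b, a B-cell receptor subunit, reached it in 40%, and the list summed to at most 2175 TPM. Siglech, the pDC surface lectin, was at 100 TPM or more in all 30 cells, with a median of 1872 TPM against 1912 in pDC. It is called the pre-pro-B gate below. Library numbers in the labels form 9 runs. GMP were in a run with CLP and the pre-pro-B gate, and CDP with 24 of the pDC. Of the SiglecH+Ly6C- pre-DC, 51 were in a run with SiglecH+Ly6C+ and 19 in a run with SiglecH-Ly6C- cells. LMPP, cMoP, blood pre-DC and SiglecH-Ly6C+ pre-DC each have a run of their own, and pDC share no run with any pre-DC gate. Differences between gates without a shared run cannot be told apart from differences between runs.

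The 6 genes lie within 1 stretch of chromosome 15 on GRCm38, by the GENCODE M21 annotation. In order they are Ly6d (chr15:74762056-74763620, minus strand), Ly6e (chr15:74955051-74959905, plus strand), Ly6i (chr15:74979534-74983430), Ly6a (chr15:74994877-74998031), Ly6c1 (chr15:75044018-75048830) and Ly6c2 (chr15:75108158-75111970), the last 4 on the minus strand. Coding sequences are 384 to 411 bases long. Reads of Ly6c1 and Ly6c2 are hard to tell apart, and the Ly6C antigen is a sort marker of this study, so part of their coding sequences is shown. They differ at 9 of 396 bases (97.7% identity). The first 300 bases, from the start codon, are printed, and capitals mark the 7 differences within them.
Ly6c1: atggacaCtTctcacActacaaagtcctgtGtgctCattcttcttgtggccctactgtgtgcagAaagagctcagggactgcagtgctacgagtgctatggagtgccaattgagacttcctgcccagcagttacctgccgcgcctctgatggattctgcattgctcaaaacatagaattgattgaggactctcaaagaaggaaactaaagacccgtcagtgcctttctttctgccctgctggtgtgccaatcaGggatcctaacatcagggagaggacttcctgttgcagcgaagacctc
Ly6c2: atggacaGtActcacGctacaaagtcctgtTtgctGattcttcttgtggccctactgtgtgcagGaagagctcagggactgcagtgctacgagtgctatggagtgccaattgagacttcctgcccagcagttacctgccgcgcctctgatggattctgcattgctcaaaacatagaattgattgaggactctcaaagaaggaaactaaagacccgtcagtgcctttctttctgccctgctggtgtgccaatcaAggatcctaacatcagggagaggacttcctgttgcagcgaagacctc
The longest stretch without a difference is 188 bases. Of all 50-base words in the Ly6c1 transcripts, 21.5% also occur in Ly6c2, and 15.03% of those in the Ly6a transcripts occur in Ly6c1. Ly6a and Ly6i are 86.4% identical over the coding sequence and share 2.39% of Ly6a's words. Ly6d and Ly6e share no 50-base word with any other member, and their coding identity with the others is between 45.7% and 52.2%. The division of reads between Ly6c1 and Ly6c2, and low values of Ly6a, are therefore uncertain.

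Because Ly6c1 and Ly6c2 moved together over the gates, the 250 bases before their transcript starts are shown as well, from RefSeq on GRCm38.p6, minus strand. Windows for these 2 of the 6 members were matched by symbol. Capitals mark matches, on either strand, to the letters searched.
Ly6c1, chr15:75048838-75049087: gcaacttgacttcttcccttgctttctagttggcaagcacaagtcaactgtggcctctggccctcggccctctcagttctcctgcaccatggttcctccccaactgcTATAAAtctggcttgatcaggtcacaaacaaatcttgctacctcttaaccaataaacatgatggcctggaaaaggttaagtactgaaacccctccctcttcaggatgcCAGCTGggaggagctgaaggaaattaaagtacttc
Ly6c2, chr15:75111972-75112221: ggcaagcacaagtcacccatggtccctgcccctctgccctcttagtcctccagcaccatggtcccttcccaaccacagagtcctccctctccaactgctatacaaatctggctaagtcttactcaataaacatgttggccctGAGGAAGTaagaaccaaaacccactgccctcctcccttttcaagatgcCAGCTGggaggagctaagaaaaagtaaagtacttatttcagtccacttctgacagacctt
Over the 228 aligned positions the windows are 71.9% identical. Both hold the E-box letters CAGCTG, found in 12.8% of the 27025 windows of this length, and 1 of them, Ly6c1, holds TATAAA (12.97% of windows). Ly6c2 has GAGGAAGT, the Ets letters bound by factors of the PU.1 type, which occur in 2.44% of windows. The interferon-response letters GAAA, any 2 bases, GAAA (3.04% of windows) and the STAT letters TTCNNNGAA (7.18%) were in neither. A match is a description of these letters, not a binding site.

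Ly6d had the widest range of gate means of log2(TPM + 1), from 0 to 14.05, with Ly6c2 next at 0.01 to 12.74. Ly6d was the most abundant transcript of all genes by mean TPM in the pre-pro-B gate. The 30 cells there ran from 6661 TPM through a median of 17387 to 40631. In pDC it ran from 0 through 3225 to 19415 TPM, and in SiglecH+Ly6C- pre-DC from 0 through 4791 to 23429. CLP ran from 2.24 through 553 to 25795 TPM, with no cell at 0. At 100 TPM or more it was found in all cells of the pre-pro-B gate, 92.6% of pDC (exact Clopper-Pearson 95% interval 75.7 to 99.1), 88.6% of the SiglecH+Ly6C- gate (78.7 to 94.9) and 60.4% of CLP (45.3 to 74.2). Intervals cover the counting of cells only. In CDP (29.3%) and SiglecH+Ly6C+ pre-DC (28.9%) a minority of cells reached that level. The low group was SiglecH-Ly6C- pre-DC (5.71%), SiglecH-Ly6C+ pre-DC (4.41%) and GMP (3.92%). In LMPP, cMoP and blood pre-DC no cell reached 100 TPM, which allows shares of up to 4.62%, 4.55% and 18.8%. In LMPP Ly6d was listed at 0 in all 65 cells.

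**Figure D1:**
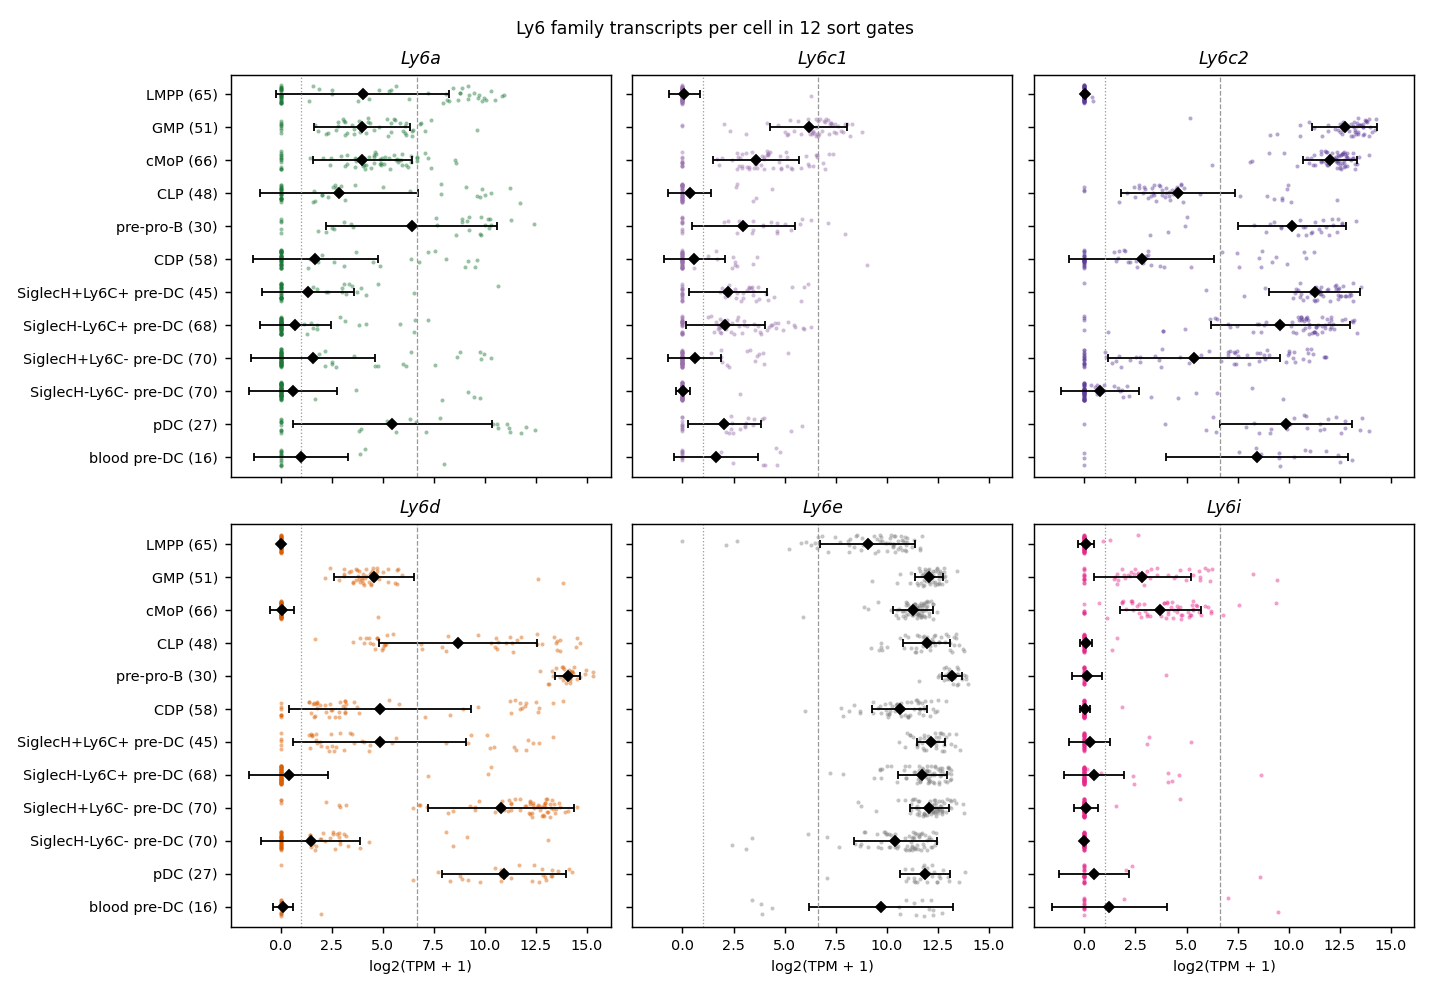
Levels of the 6 Ly6 members as log2(TPM + 1) in each cell of 12 gates, with the number of cells in brackets; diamonds and bars are the mean and SD over cells, the dotted line is 1 TPM and the dashed line 100 TPM. Ly6e lies at mean levels of 9.06 to 13.19 in every gate, whereas Ly6d ranges from 0 in LMPP to a mean of 14.05 in the pre-pro-B gate.

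Low Ly6d values followed the library runs. In the 51 GMP no cell was at 0, and 49 lay under 100 TPM with a median of 17.3, which is 0.291% of the mean of 5962 TPM in the run that GMP share with CLP and the pre-pro-B gate. The corresponding low cells were at 0.423% of the run mean in CLP, 0.192% in CDP, 0.143% in SiglecH+Ly6C+ and 0.350% in SiglecH-Ly6C- pre-DC. In LMPP and cMoP, whose runs hold no other gate, 65 of 65 and 65 of 66 cells were at 0. When values under 1% of a gene's run mean were set to 0, an alternative chosen after seeing the data, the share of GMP at 1 TPM or more fell from 100% to 5.88%. The same setting took CDP from 87.9% to 32.8% and SiglecH-Ly6C- pre-DC from 44.3% to 8.57%. Shares at 100 TPM lie above the level this setting can reach. Ly6c2 had such values too: the low CLP cells were at a median of 12.4 TPM, 0.285% of its run mean of 4356 TPM, and CLP at 1 TPM or more went from 93.8% to 20.8%. What these low values come from was not tested. Shares at 100 TPM do not include them, whereas means, differences of means and correlations below do.

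**Figure D2:**
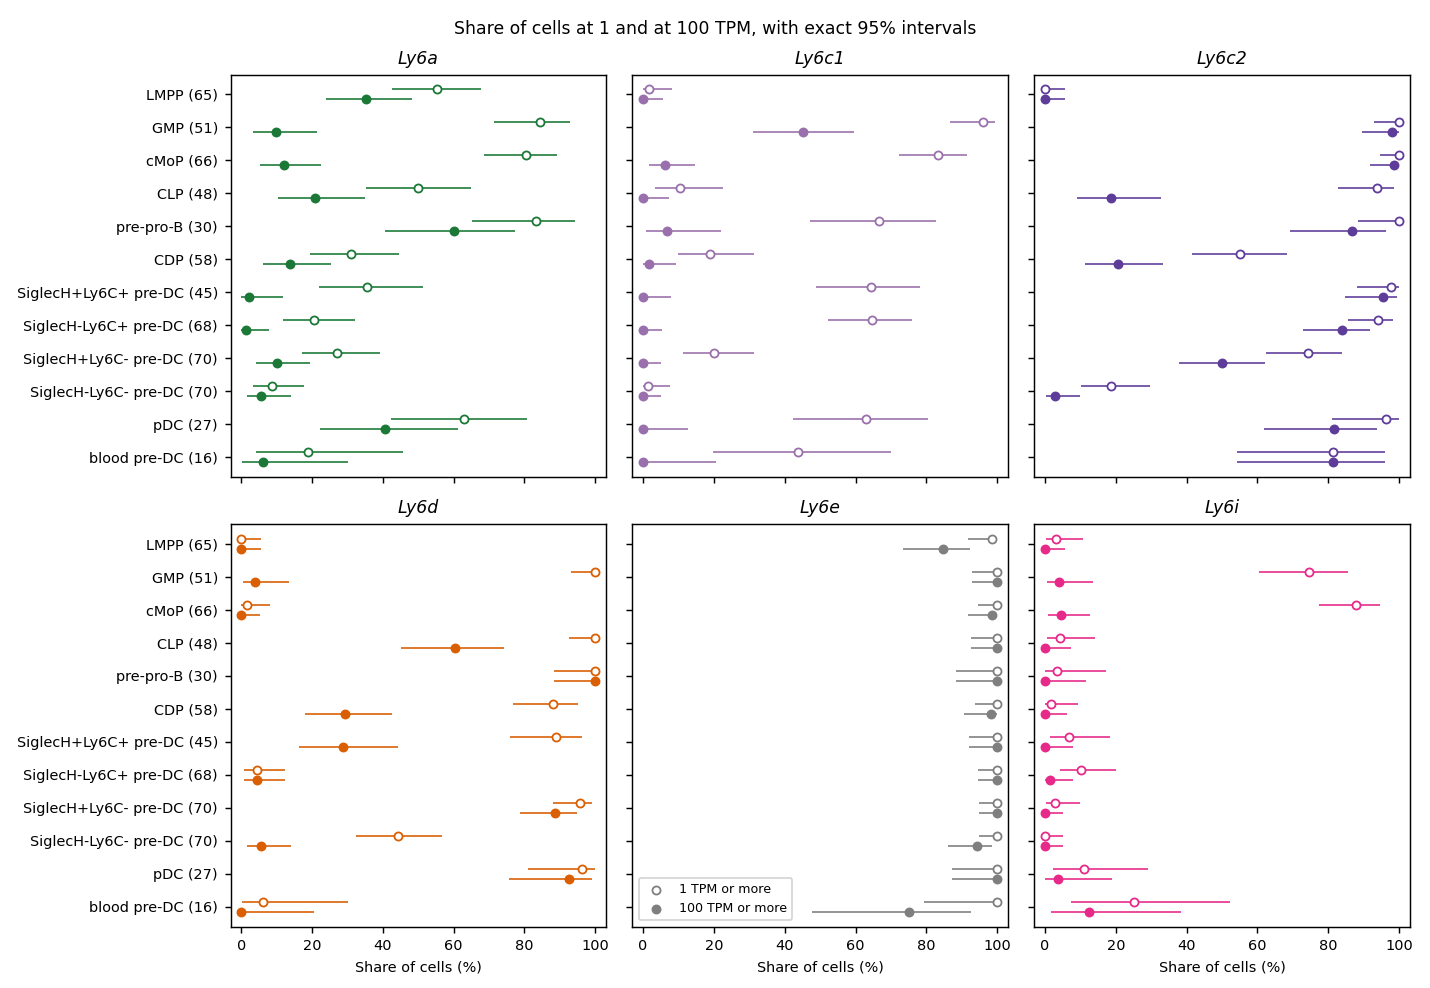
Share of cells (%) at 1 TPM or more (open points) and at 100 TPM or more (filled points) for each member and gate, with exact 95% intervals. Ly6d in GMP falls from 100% at 1 TPM to 3.92% at 100 TPM, whereas in SiglecH+Ly6C- pre-DC it keeps 88.6%.

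Within gates of mixed level, cells above 100 TPM of Ly6d were mostly far above it. Of 13 such SiglecH+Ly6C+ pre-DC 10 were at 1000 TPM or more, with the highest at 10227, while the gate's median was 7.48. Of 17 such CDP 13 were at 1000 TPM or more, up to 14503. GMP had 1 cell at 14619 TPM and 1 at 6256, and both also held Ly6c2 above 100 TPM, as did 98.0% of all GMP. In SiglecH+Ly6C- pre-DC both runs were high, with 92.2% of 51 cells and 78.9% of 19 cells at 100 TPM or more.

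Ly6c2 was the highest member in the myeloid progenitors. In GMP it ran from 35.5 through a median of 9609 to 19624 TPM and ranked 5th of all genes by mean TPM. In cMoP, sorted for high Ly6C, it ran from 74.2 through 5399 to 15784 TPM. SiglecH+Ly6C+ pre-DC had a median of 3102 TPM and SiglecH-Ly6C+ pre-DC one of 1808, and both were sorted for the protein. Gates not sorted for it were also high: the pre-pro-B gate had a median of 2018 TPM (8.41 to 10176), pDC 1731 (0 to 15832) and blood pre-DC 751 (0 to 8764). LMPP was the gate without it, at 0 in 63 of 65 cells and at most 0.32 TPM. At 100 TPM or more Ly6c2 was found in 98.5% of cMoP, 98.0% of GMP, 95.6% and 83.8% of the pre-DC with Ly6C (with and without SiglecH), 86.7% of the pre-pro-B gate and 81.5% of pDC. CDP and CLP were low, at 20.7% and 18.8%.

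The Ly6C- gates differed from each other in the Ly6c2 transcript. Of 70 SiglecH-Ly6C- pre-DC 2 cells reached 100 TPM (2.86%, interval 0.348 to 9.94). In the SiglecH+Ly6C- gate 35 of 70 did (50%, 37.8 to 62.2), with values up to 3637 TPM. The sort had excluded cells with surface Ly6C from both. In the run that the 2 gates share, 7 of 19 SiglecH+Ly6C- cells (36.8%) and the same 2 of 70 SiglecH-Ly6C- cells were above it. In the run shared with SiglecH+Ly6C+ cells the share was 54.9% of 51.

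Ly6c1, the near-identical neighbour, was far below Ly6c2. Its highest gate was GMP, with a median of 94.9 TPM (0 to 445.1), followed by cMoP at 12.5 and the pre-pro-B gate at 9.80. The other gates had medians of 5 TPM or less, and in 8 gates no cell reached 100 TPM. In cells with a sum of 100 TPM or more, Ly6c1 made up 1.22% of the 2 genes' TPM in GMP, 1.03% in the pre-pro-B gate, 0.509% in cMoP and 0.189% in blood pre-DC. The highest share was in the 12 such CDP, at 5.27%, which rests on 1 cell at 519 TPM. Ly6c1 exceeded Ly6c2 in none of these cells, a selection that leaves out cells low in both. Over all cells it did in 11, with at most 78 TPM of Ly6c1. Over the cells of a gate the 2 transcripts rose together, with Spearman's rho between 0.46 in SiglecH+Ly6C+ pre-DC (45 cells) and 0.80 in GMP (51 cells) in the 6 gates where both were at 1 TPM in 50% of cells. Shared reads, which the sequences above allow, move with this relation, and their part in it was not tested.

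**Figure D3:**
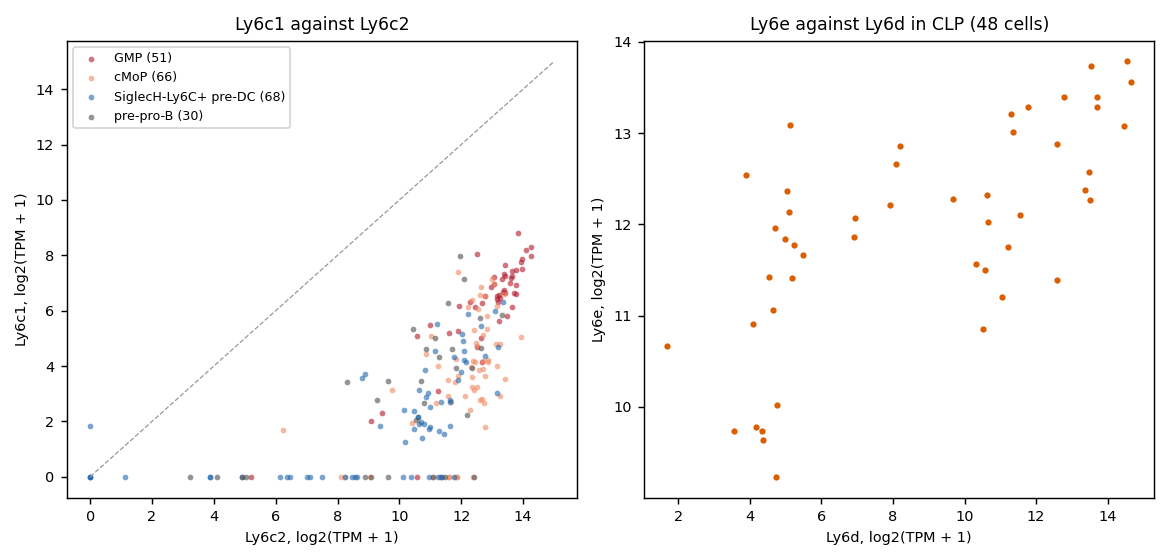
Left, Ly6c1 against Ly6c2 as log2(TPM + 1) in single cells of 4 gates, with the line of equality dashed; right, Ly6e against Ly6d in 48 CLP. Cells with Ly6c2 above 100 TPM all lie under the line of equality, and in CLP the cells with more Ly6d also had more Ly6e, with a rho of 0.71.

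Ly6a, the Sca-1 gene, was highest in the pre-pro-B gate and pDC. The cells of the pre-pro-B gate ran from 0 through a median of 422 to 5373 TPM, and 60% were at 100 TPM or more (40.6 to 77.3). In pDC it ran from 0 through 50.01 to 5580 TPM, with 40.7% of cells at that level (22.4 to 61.2). LMPP, sorted as Sca-1+, ran from 0 through 4.67 to 1976 TPM, with 29 of 65 cells at 0 and 35.4% at 100 TPM or more (23.9 to 48.2). CLP had 20.8%, CDP 13.8% and SiglecH+Ly6C- pre-DC 10.0%. The lowest share was in SiglecH-Ly6C+ pre-DC, 1.47%.

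LMPP and GMP differed in high Ly6a values and in the mean TPM, and not in the mean of the logs. GMP, sorted as Sca-1-, had Ly6a at 1 TPM or more in 84.3% of cells (71.4 to 93.0), more than the 55.4% of LMPP (42.5 to 67.7). At 100 TPM the order was the opposite, 9.80% of GMP and 35.4% of LMPP. The mean log2(TPM + 1) was 3.98 ± 2.36 (SD over cells) in GMP and 4.03 ± 4.23 in LMPP, and the mean TPM was 48.5 and 265.1. These 2 gates share no run, and GMP had more genes per cell (median 5792 against 3292). The Sca-1 sort cannot be told apart from these differences. CLP, low in Sca-1 and in the run of GMP, had a mean of 2.87 ± 3.87 and a mean TPM of 245.1. Its median was 3280 genes per cell, and 50% of CLP were at 1 TPM of Ly6a and 20.8% at 100 TPM. The cells of GMP and cMoP, the 2 gates with the most Ly6c2, lay mostly between 10 and 100 TPM of Ly6a (26 of 51 and 37 of 66). Over the 51 GMP, Ly6a followed Ly6c1 (rho 0.59) and Ly6c2 (rho 0.59). In the other 4 gates where it could be computed the rho with Ly6c2 was lower (median over the 5 gates 0.10). It was 0.38 in cMoP, 0.10 in the pre-pro-B gate, 0.07 in CLP and 0.03 in pDC. Whether reads of Ly6c1 contributed to these Ly6a values was not tested.

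Ly6i, a close relative of Ly6a, was at low level, and at 1 TPM it was found mostly in cMoP and GMP. In cMoP it ran from 0 through a median of 15.6 to 663.2 TPM and reached 1 TPM in 87.9% of cells (77.5 to 94.6). In GMP the median was 4.61 TPM and 74.5% of cells reached 1 TPM (60.4 to 85.7). Blood pre-DC had 4 of 16 such cells, 1 of them at 713 TPM. In the other 9 gates the share was at most 11.1%, in pDC, and SiglecH-Ly6C- pre-DC were at 0 in all 70 cells. Within cMoP, Ly6i followed Ly6a with a rho of 0.59 over 66 cells, and within GMP with a rho of 0.33. These 2 genes share 2.39% of Ly6a's 50-base words, and whether shared reads contributed to this relation was not tested.

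Ly6e was expressed in nearly every cell of every gate. It reached 1 TPM in all but 1 cell and 100 TPM in 96.7% of them. Gate medians ran from 864.6 TPM in LMPP and 1790 in CDP to 9463 in the pre-pro-B gate, with 2315 in SiglecH-Ly6C- pre-DC and between 2662 and 5019 in the other 8 gates. Its mean log2(TPM + 1) was 13.19 ± 0.48 in the pre-pro-B gate, against 12.16 ± 0.70 in SiglecH+Ly6C+ pre-DC, the next gate down. This gap of 1.03 was the 1 gap between neighbouring gates in the order of Ly6e that exceeded the larger SD. For Ly6d 2 of 11 neighbouring gaps did so, below the pre-pro-B gate and below GMP. The second rests on the low GMP values described above. For Ly6c1 1 gap did so, below GMP. For Ly6a, Ly6c2 and Ly6i the 11 neighbouring gates in the order of means all differed by less than the larger SD.

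Together the 6 transcripts made up a large part of some cells. The median summed level was 29591 TPM per cell in the pre-pro-B gate, 14733 in GMP and 12962 in pDC, against 1202 in LMPP, 2252 in CDP and 2411 in SiglecH-Ly6C- pre-DC. In GMP and cMoP, Ly6c2 supplied 63.3% and 64.4% of it. In the pre-pro-B gate Ly6d supplied 58.7%, and in SiglecH+Ly6C- pre-DC and CLP 48.4% and 41.04%. pDC drew on 3 members, with 36.7% from Ly6d, 33.5% from Ly6e, 23.05% from Ly6c2 and a further 6.54% from Ly6a. LMPP had 79.5% from Ly6e and 20.4% from Ly6a. By single cells, Ly6c2 led in 59 of 66 cMoP and 42 of 51 GMP, Ly6d in 26 of 30 cells of the pre-pro-B gate, and Ly6e in 68 of 70 SiglecH-Ly6C- pre-DC. No member led in most pDC: Ly6d did in 11 of 27 cells, Ly6e in 10, Ly6c2 in 5 and Ly6a in 1.

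**Figure D4:**
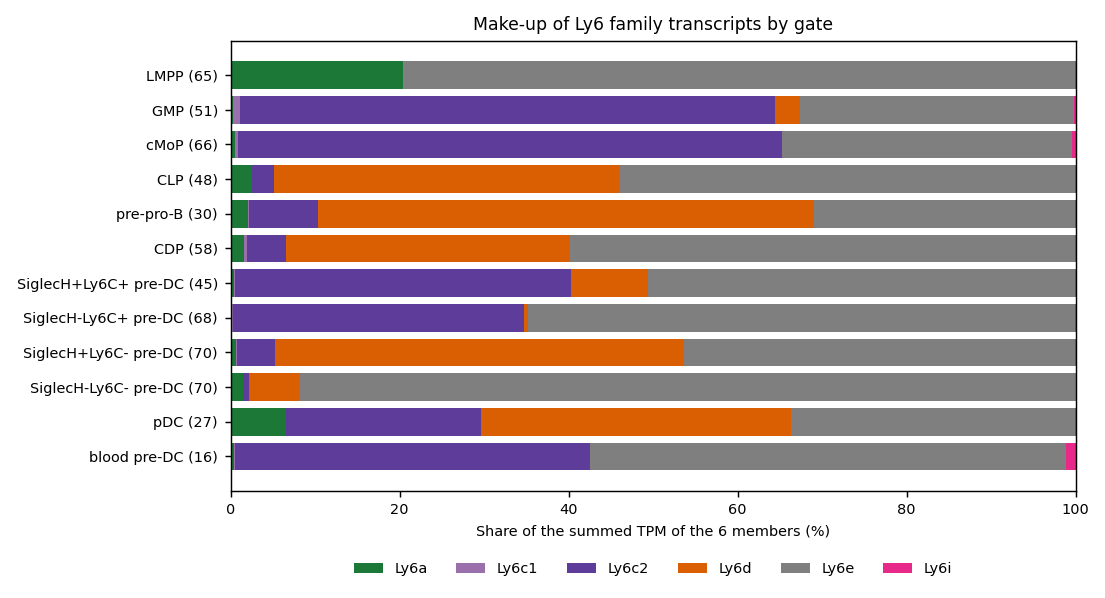
Share (%) of the summed TPM of the 6 members that each member supplied in each gate, over all its cells (number in brackets). Ly6c2 supplied 63.3% in GMP and 64.4% in cMoP, Ly6d 58.7% in the pre-pro-B gate, and Ly6e 91.8% in SiglecH-Ly6C- pre-DC.

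The number of members at 100 TPM or more in a cell was highest in pDC and the pre-pro-B gate. In pDC 24 of 27 cells (88.9%) had 3 or more members, and in the pre-pro-B gate 26 of 30 (86.7%). GMP had 54.9%, SiglecH+Ly6C- pre-DC 50%, SiglecH+Ly6C+ pre-DC 26.7%, CLP 25%, cMoP 18.2% and CDP 17.2%. SiglecH-Ly6C+ pre-DC had 7.35% and SiglecH-Ly6C- pre-DC 2.86%, and no LMPP did. The sets differed: in GMP the third member was mostly Ly6c1 (20 cells with Ly6c1, Ly6c2 and Ly6e alone). In pDC 13 cells had Ly6c2, Ly6d and Ly6e and 6 had these with Ly6a. In the pre-pro-B gate the set of 4 was the most frequent, in 16 of 30 cells.

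The share of cells with both Ly6d and Ly6c2 differed among gates. Both were at 100 TPM or more in 74.1% of pDC (53.7 to 88.9) and 86.7% of the pre-pro-B gate (69.3 to 96.2). The products of the single shares were 75.4% and 86.7%. In the pre-pro-B gate every cell had Ly6d at that level, so share and product are equal by construction. In pDC 92.6% of cells had Ly6d and 81.5% Ly6c2, which leaves little room for an excess. In SiglecH+Ly6C- pre-DC 31 of 70 cells had both (44.3%), 31 had Ly6d alone and 4 had Ly6c2 alone, and the product was also 44.3%. In SiglecH+Ly6C+ pre-DC 12 of 45 cells had both, 31 had Ly6c2 alone and 1 had Ly6d alone (26.7% with both, product 27.6%). CDP had 8 of 58 cells with both (13.8%, 6.15 to 25.4) where the product is 6.06%, with 4 cells with Ly6c2 alone and 9 with Ly6d alone. CLP had 8 of 48 (16.7%, 7.48 to 30.2) where the product is 11.3%. Of 9 CLP at 100 TPM of Ly6c2, 8 thus also had Ly6d at that level. The CDP interval begins just above its product and the CLP interval contains it, and the single shares carry counting error of their own. In SiglecH-Ly6C+ pre-DC all 3 cells with Ly6d also had Ly6c2, as did 83.8% of the gate.

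**Figure D5:**
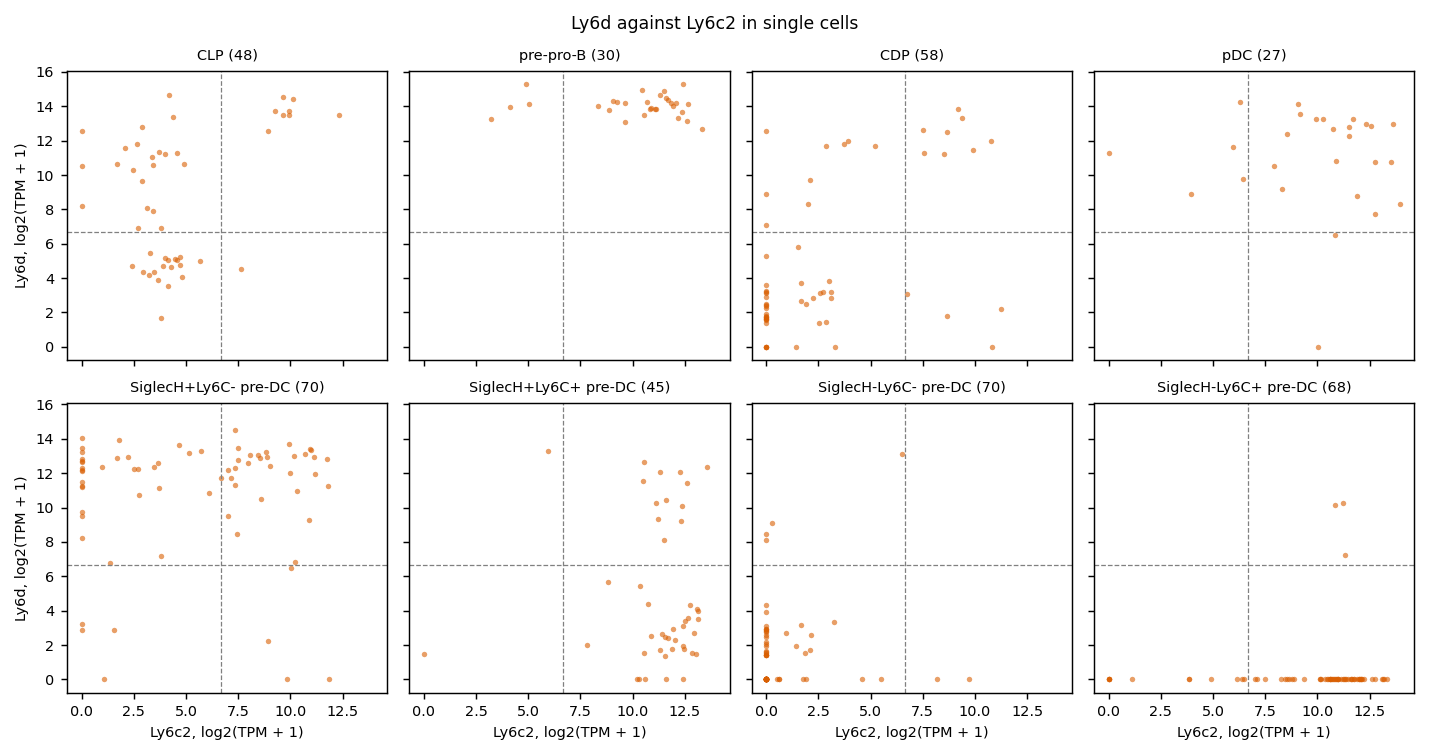
Ly6d against Ly6c2 as log2(TPM + 1) in single cells of 8 gates, with the number of cells in brackets; dashed lines mark 100 TPM. Both were above 100 TPM in 20 of 27 pDC and 26 of 30 cells of the pre-pro-B gate, in 31 of 70 SiglecH+Ly6C- pre-DC and in 8 of 48 CLP.

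Ly6e followed other members within several gates. Over 48 CLP, Ly6d and Ly6e had a rho of 0.71, the highest of the 7 gates in which this pair could be computed (median 0.20). The number of genes per cell ran against both there, with a rho of -0.32 for Ly6d and -0.25 for Ly6e. Ly6e and Ly6c2 had a rho of 0.58 in GMP, 0.46 in cMoP, 0.45 in CDP and 0.66 in the 16 blood pre-DC, over a median of 0.33 in 10 gates. Genes per cell moved with Ly6c2 in CDP (rho 0.38) and in blood (0.50), and also with Ly6e in these gates (0.38 and 0.33). Cells of a gate share their sort and mostly their run, and these correlations are descriptions.

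Between gates, differences in mean log2(TPM + 1) of 2 or more are called past the fold; a member's share is read beside that of all genes detected in 10% of the cells of either gate, in each direction. The scale understates the change of low genes. From CLP to the pre-pro-B gate, 4 of 6 members were higher past the fold and none lower, against 2.61% of 9637 genes higher and 1.34% lower. Ly6c2 was higher by 5.59, Ly6d by 5.37 and Ly6a by 3.55, Ly6c1 was also past the fold, and Ly6e differed by 1.24. Ly6a was at 1.43 from the log2 of the mean TPM, and Ly6c1 at 1.10 with a pseudocount of 10, so both calls depend on the scale. The median difference of the 6 was 3.09, beside 0.07 over all genes tested, and both gates are in 1 run. Ly6i was under the detection limit of the background here and in 2 of the pre-DC contrasts. From CDP to pDC, 3 members were higher and none lower, where 1.13% of 13227 genes were higher and 5.00% lower: Ly6c2 by 7.07, Ly6d by 6.09 and Ly6a by 3.78. From mean TPM Ly6i was past the fold as well (3.91), and also in pDC against SiglecH+Ly6C- pre-DC (3.50). Against SiglecH+Ly6C- pre-DC, pDC had 2 members higher and none lower, beside 0.389% of genes higher and 2.68% lower. These were Ly6c2 (4.50) and Ly6a (3.90). These gates share no run. Ly6d differed by 0.15 between them, under the SDs of 3.02 and 3.59.

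Between CLP and GMP, which share a run, members differed in both directions. CLP minus GMP had 1 member higher, Ly6d (4.11), beside 0.722% of 10521 genes. It had 3 members lower beside 21.3% of genes: Ly6c2 (-8.16), Ly6c1 (-5.83) and Ly6i (-2.78). CLP had fewer genes per cell than GMP. Ly6e differed by -0.13. Ly6a was at -1.11, and its direction turned to 2.32 from the log2 of the mean TPM. With a pseudocount of 10 Ly6i was at -1.08. LMPP minus GMP had no member higher and 5 lower, beside 3.03% of genes higher and 29.7% lower. Ly6c2 was at -12.73, Ly6c1 at -6.08, Ly6d at -4.57, Ly6e at -3.02 and Ly6i at -2.77. With a pseudocount of 10 the calls of Ly6d (-1.85) and Ly6i (-1.08) were lost, and from mean TPM Ly6a was higher in LMPP by 2.43. In cMoP minus GMP none was higher and 2 were lower, Ly6c1 (-2.58) and Ly6d (-4.50), beside 5.46% of genes higher and 6.44% lower. With a pseudocount of 10 neither was past the fold (-1.80 and -1.82). LMPP and cMoP share no run with GMP. The Ly6d calls against GMP rest on the low GMP values described above: with values under 1% of the run mean set to 0 they became -0.63 for LMPP and -0.56 for cMoP. CLP minus GMP became 6.27 in the same setting.

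Among pre-DC, Ly6d was higher with SiglecH, and within SiglecH+ cells it was lower with Ly6C. Without Ly6C, the SiglecH+ gate was higher in Ly6d by 9.33 and in Ly6c2 by 4.61. That is 2 members higher and none lower beside 1.87% and 0.694% of 12528 genes. In the run that these gates share, 19 SiglecH+Ly6C- cells had a mean Ly6d of 9.49, against 1.47 in SiglecH-Ly6C- cells. Mean Ly6c2 was 3.86 and 0.76 there, and the calls were the same. With Ly6C, the SiglecH+ gate was higher in Ly6d by 4.45, 1 member higher and none lower beside 0.302% and 0.596% of 11919 genes. These 2 gates with Ly6C share no run. With values under 1% of the run mean set to 0 their Ly6d difference was 3.01, and that without Ly6C was 9.97. From mean TPM Ly6a was past the fold too (2.44). SiglecH+Ly6C+ minus SiglecH+Ly6C- cells had Ly6d lower (-5.94) and Ly6c2, the sort gene, higher by 5.90. That is 1 member in each direction beside 0.329% of genes higher and 0.810% lower. In the same setting of low values Ly6d was at -7.22. With the 51 SiglecH+Ly6C- cells of the shared run alone the calls were the same. Of SiglecH- cells, those with Ly6C had 2 members higher and none lower beside 0.863% and 0.609% of genes. Both, Ly6c2 (8.82) and Ly6c1 (2.06), encode the protein used in the sort, so they check the labels. With a pseudocount of 10 Ly6c1 was at 0.67. From mean TPM Ly6a was lower past the fold (-2.23, against 0.13 on the log scale) and Ly6i higher (3.04). Ly6d differed by -1.07 there, and by -0.26 with the low values set to 0. These 2 SiglecH- gates share no run. Blood pre-DC minus the mean of the 4 marrow gates had Ly6d lower (-4.26) and no member higher, beside 0.899% of genes higher and 4.21% lower. Ly6c2 was at 1.70 and Ly6e at -1.89; without the cells under 2000 genes Ly6c2 was past the fold (2.91), and from mean TPM Ly6i was (4.601). The marrow mean includes gates without SiglecH, and the blood gate was not divided by it. The blood gate shares no run with the marrow gates, and with the low values set to 0 Ly6d was at -3.66 and Ly6e at -2.83. Several of these contrasts share a gate.

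Genes whose gate means were most like each member are named by Pearson's r over the 12 gates, as a description; the gates share runs. For Ly6d they were Cox6a2 (0.97), a muscle-type subunit of cytochrome c oxidase, Blnk (0.96), the B-cell linker adaptor, Smim5 (0.94), Blk (0.94), a B-lymphoid kinase, and Fads3 (0.94). Cox6a2 had its highest mean in the pre-pro-B gate (11.66) and the next in pDC (9.60), as did Ly6d, and was at 0 in blood pre-DC. For Ly6c2 the closest were the lysosomal enzymes Ctsa (0.92) and Ctsz (0.88), then Bscl2, Cdc25b and Rrbp1. Ly6c1 was closest to Atp6ap2 (0.95), a proton pump accessory protein, then Slc25a25, Dlst, Stard5 and Dr1. Ly6i was closest to Aoah (0.99), the enzyme that deacylates lipopolysaccharide, Trem2 (0.99), a myeloid receptor, Gda, Hp (haptoglobin) and Zfp568, all with their 2 highest gates in cMoP and GMP. Ly6e was closest to Bloc1s2 (0.92), Rexo2, Trex1, Cyb561a3 and Lgals1, and Ly6a to Zfp358 (0.89), Timp2, Ctso, Pcmtd1 and Tmsb15b1. Among the members themselves r was 0.85 for Ly6c1 and Ly6c2, 0.76 for Ly6c1 and Ly6i, and 0.73 for Ly6d and Ly6e.

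Of 29 other genes of the Ly6 and uPAR type in the table, 13 were at 0 in every cell. The highest by mean over gates were Plaur, the urokinase receptor, and Ly6g, the neutrophil marker. Plaur reached 1 TPM in 64.7% of GMP and 63.6% of cMoP, and in 6.25% of CLP. Ly6g reached it in 90.9% of cMoP, with a median of 17.98 TPM, 82.4% of GMP, 48.9% and 38.2% of pre-DC with Ly6C (with and without SiglecH), and in no CLP and no SiglecH-Ly6C- pre-DC. Its highest value in any cell was 103.5 TPM. S100a8, the other leading neutrophil gene, reached 1 TPM in 21.2% of cMoP and 15.7% of GMP. From CDP to pDC 1 of the 8 such genes tested was higher past the fold and none lower, beside 1.13% and 5.00% of all genes. From CLP to the pre-pro-B gate none of 4 was past it, beside 2.61% of all genes higher and 1.34% lower. These counts are too small to be told from those shares.

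Genes for the GPI anchor and of the interferon list were read in 2 of the contrasts above. The lists are too short to tell their counts from the shares over all genes. From CLP to the pre-pro-B gate 0 of 21 anchor genes tested were higher past the fold and 1 lower. Of all genes tested, 2.61% were higher and 1.34% lower. The median difference was 0.01 beside 0.07 over all genes. From CDP to pDC 0 of 22 anchor genes were past the fold in either direction (median -0.60 beside -0.28 over all genes). There 1.13% of all genes were higher and 5.00% lower. Dpm1 and Dpm3, subunits of dolichol-phosphate mannose synthase, were the highest of the list. Dpm1 reached 1 TPM in 40% of the pre-pro-B gate and all pDC, and Dpm3 reached 1 TPM in 83.3% of the pre-pro-B gate and 44.4% of pDC. Of 25 interferon-inducible genes, 1 of 18 tested was higher past the fold and none lower in each of these 2 contrasts. Bst2, the membrane protein tetherin, which is also a pDC surface marker, had median levels of 1241 TPM in the pre-pro-B gate, 515 in pDC and 329 in SiglecH+Ly6C- pre-DC, against 4.66 in CLP and 0.8 in CDP. Trim30a was highest in SiglecH+Ly6C+ pre-DC, at a median of 190 TPM. Among interferon receptors, Ifngr1 had a median of 297.9 TPM in GMP and 203 in cMoP, and 0.855 in the pre-pro-B gate.

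Markers of other cell types were examined beside the members. In pDC, 3 of 7 endothelial markers were at 0, and Cdh5 reached 1 TPM in 51.9% of cells, with a summed level of the list between 0 and 275 TPM. In the pre-pro-B gate 3 of 7 were at 0 and the sum reached 582 TPM. Of 5 plasma cell genes 2 were at 0 in pDC, and the sum ran up to 2897 TPM with Xbp1 in 88.9% of cells. All 5 erythroid genes were at 0 in pDC and in SiglecH+Ly6C- pre-DC, but their sum reached 19988 TPM in GMP, 25296 in blood pre-DC and 1274 in SiglecH-Ly6C- pre-DC. Neutrophil genes were all at 0 in SiglecH-Ly6C- pre-DC, and 6 of 7 were at 0 in pDC and in the pre-pro-B gate. All 6 monocyte genes reached 1 TPM in 50% or more of cMoP and of SiglecH-Ly6C+ pre-DC. Their sum reached 53419 TPM in blood pre-DC, and its median in pDC was 31.85 TPM. In SiglecH-Ly6C+ against SiglecH-Ly6C- pre-DC, 4 of these 6 were higher past the fold and none lower. Of all 11817 genes tested there, 0.863% were higher and 0.609% lower. These 2 gates were sorted apart by Ly6C and share no run. Of 7 T and NK cell genes 5 were at 0 in GMP, where the sum had a median of 521.5 TPM. The part of such cells in the Ly6 values was not tested.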

How the data were processed

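The deposited table holds TPM per gene symbol and cell for every cell; per the submitters' processing notes the authors made these TPM with RSEM 1.2.19 and GRCm38. Which aligner and which annotation they used is not given in the sources used here. Totals were 997616 to 1000000 TPM per cell. The read depth is unknown.

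Gates were taken from the labels, 1 sample each; replicate numbers only name cells. Each value had a pseudocount of 1 added before the log2. Computed here were its mean and SD over cells, shares of cells at 1 and 100 TPM with exact Clopper-Pearson 95% intervals (a share of 0 allows 3 cells), and differences of gate means, called past the fold at 2. The background is all genes detected (1 TPM) in 10% of either gate's cells. Spearman's rho was computed where both genes reached 1 TPM in 50% of a gate's cells. Likeness used 10278 genes detected in 20% of any gate's cells, leaving out the members, predicted genes, pseudogenes, mitochondrial, ribosomal and sex-linked genes and antigen receptor segments; the first 5 per member and the 2 highest of each list are named. Members and lists were chosen with earlier results of these data known. No doublet caller was run. Sequences came from GENCODE M21 transcripts and RefSeq. Only the differences of means and the likeness ranking were tested with planted changes. For the differences, 200 genes at 1 TPM or more in every GMP cell were changed in a random part of these cells. Genes with values at 0 were not changed, and shares, pairs and rho were not tested in this way. Software was Biopython 1.88, matplotlib 3.10.9, scipy 1.17.1, pandas 2.3.3 and numpy 2.4.6 under Python 3.11.15. Alternatives were other pseudocounts, the log2 of the mean, size factors, rescaling without mitochondrial genes, leaving out cells, single runs and other thresholds; setting values under 1% of the run mean to 0 was added after seeing the data.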

Additional observations from a re-analysis of the deposited data

Results flagged for a closer look

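In 2 members the same comparison of pre-DC gates had opposite signs in its 2 settings, and neither difference was tested because each gate is 1 sample. Ly6i was higher in SiglecH+ than in SiglecH- pre-DC by 0.09 on the log2(TPM + 1) scale among Ly6C- cells, and differed by -0.21 among Ly6C+ cells. Ly6a differed between Ly6C+ and Ly6C- pre-DC by -0.22 among SiglecH+ cells and by 0.13 among SiglecH- cells. From the log2 of the mean TPM both Ly6a values were negative (-0.91 and -2.23), so the opposite signs are not kept. The Ly6i value of 0.09 rests on 2 of 70 SiglecH+Ly6C- cells, since the SiglecH-Ly6C- gate was at 0 in all of its cells.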

How the results depend on the processing

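Of 558 single-member differences under the alternatives, planned and added, 531 stayed on their side of the fold and none past it reversed. From the log2 of the mean TPM 2 differences of Ly6a turned direction and ended past the fold, CLP minus GMP (-1.11 to 2.32) and SiglecH-Ly6C+ minus SiglecH-Ly6C- pre-DC (0.13 to -2.23). Counts of members past the fold changed by over 1.5 times in 11 of 93 cases, and the cause was not tested. With a pseudocount of 10 the count fell from 5 to 3 in LMPP minus GMP, from 2 to 0 in cMoP minus GMP and from 2 to 1 in SiglecH-Ly6C+ minus SiglecH-Ly6C- pre-DC. With the log2 of the mean TPM it was 4 in the last of these, 2 against 1 in SiglecH+Ly6C+ minus SiglecH-Ly6C+ pre-DC and 2 against 1 in blood minus marrow pre-DC. The blood comparison also gave 2 with a pseudocount of 0.1, without the 4 cells under 2000 genes, without the 5% of cells with the most genes, and with values under 1% of the run mean set to 0. That last setting gave 1 in cMoP minus GMP. With size factors the median over genes moved by 0.15 in pDC minus CDP, 0.14 in pDC minus SiglecH+Ly6C- pre-DC and 0.11 in LMPP minus GMP, and changed no member's call. Without a filter on low values all 11 background shares moved. Of the first 5 genes most like a member, 0 to 3 were shared when ranked by Spearman's rho, and 1 to 5 without blood pre-DC, so these names depend on the measure. Against the shares at 100 TPM, 28 of 72 left their interval at 10 TPM and 35 at 1000 TPM, and 61 of 180 shares of cells with a pair of members did at 10 TPM. No paired analysis was possible because the replicate numbers only name cells and each gate is 1 sample. Unknown depth limits low values most.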
